A study of Homo sapiens with 36 samples.

Results

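The cytosolic ribosomal protein genes were followed through APE1 knockdown and exposure to acidic bile salts in a pair of human esophageal adenocarcinoma cell lines. They were taken as protein-coding genes with a symbol of RPL or RPS plus a digit, RPLP0 to RPLP2 or RPSA, without pseudogenes and RPS6 kinase genes. Of 57500 gene IDs in the count table, 91 met the symbol rule and 85 reached a mean of at least 1 CPM (a gene's counts per 1e6 counts of its library) over the 36 libraries. The 85 were 43 large subunit genes, 31 small subunit genes, 3 genes of the P stalk (the lateral stalk that recruits elongation factors), 6 paralogues and 2 genes whose symbol fits but whose product is no protein of the cytosolic ribosome. Those 2 were RPS19BP1, which encodes a binding partner of RPS19, and RPL7L1, a factor of ribosome assembly. The member closest above the minimum was RPL3L with a mean of 1.40 CPM; the closest below it was the readthrough gene RPS10-NUDT3 with 0.0787 CPM. Also below it were the readthrough genes RPL36A-HNRNPH2 and RPL17-C18orf32, the paralogue RPL10L, and 2 Y-linked paralogues of RPS4X.

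The study asks how APE1, the endonuclease of base excision repair encoded by APEX1, shapes the RNA response of reflux-associated tumor cells. OE33 cells were grown in RPMI1640 and FLO1 cells in DMEM, so line and medium cannot be told apart. In each line the 6 groups were shAPE1#1 after acidic bile salts (ABS), unexposed shAPE1#1, shAPE1#3 after ABS, unexposed shAPE1#3, shControl after ABS and unexposed shControl. All cells, controls included, carried a stably transduced shRNA; cells without an shRNA were not analysed here. ABS was a bile salt mixture at 200 µM and pH 4, given for 20 min and followed by 6 h in complete medium. Each group had 3 libraries of polyA RNA, which the labels call independent biological replicates.

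A ribosome holds 1 copy of nearly every ribosomal protein, so the cell makes these proteins in matched amounts. Most of their mRNAs are TOP mRNAs: they begin with a cytosine followed by a run of pyrimidines, through which mTORC1 and LARP1 control their translation and stability. Their transcription follows growth, with MYC among the known activators. A few members have paralogues that replace the canonical protein in some cells, such as RPL3L in striated muscle and RPL22L1, whose mRNA is known to be held down by RPL22.

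The start sites show this motif. Of the 67 members with an entry in the RefSeq promoter table (GRCh38.p14), 47 (70.1%) had at a listed start a C followed by 4 pyrimidines on the transcribed strand, against 947 of 14860 protein-coding genes (6.37%). The other 18 members, RPL23, RPL3L and RPL39L among them, had no entry. The lines below give 15 bases before and 15 bases from the start for 5 members whose values are described later, chosen with those values known, with and without the motif; capitals mark the C and the 4 pyrimidines after it.
RPL34: aaaggcttttttcttCCTCTtccggggacg
RPL39: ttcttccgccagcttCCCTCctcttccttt
RPS24: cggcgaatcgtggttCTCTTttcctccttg
RPS16: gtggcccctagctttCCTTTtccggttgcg
RPL19: tgggctctccccttcgcagataatgggagg
Their positions are chr4:108620561-108620590 on the plus strand for RPL34, chrX:119791616-119791645 on the minus strand for RPL39, chr10:78033848-78033877 on the plus strand for RPS24, chr19:39435935-39435964 on the minus strand for RPS16 and chr17:39200268-39200297 on the plus strand for RPL19. RPL19 has no such tract at either of its 2 listed starts, though a run of pyrimidines ends just before the start shown. A match is a description of these letters, not of a translated or regulated start.

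Canonical members such as RPL3, RPL4 and RPS7 lacked the motif too, so its absence is not particular to paralogues. The paralogues with an entry were set beside their canonical genes, and the motif differed within some of these pairs.
RPL22: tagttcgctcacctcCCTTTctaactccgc
RPL22L1: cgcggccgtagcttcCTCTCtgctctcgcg
RPL26: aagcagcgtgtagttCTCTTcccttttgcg
RPL26L1: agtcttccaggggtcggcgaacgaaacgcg
RPL36A: tttgcctcgcggtttCTTTCtttccgcgcc
RPL36AL: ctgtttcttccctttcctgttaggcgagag
RPS27: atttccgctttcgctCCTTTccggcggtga
RPS27L: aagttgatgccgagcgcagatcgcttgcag
RPL22 and RPL22L1 both begin with a tract, while RPL26L1, RPL36AL and RPS27L do not and RPL26, RPL36A and RPS27 do. The motif was read at the exact listed start only, and in RPL36AL a run of pyrimidines spans that position without matching it. The windows lie at chr1:6199581-6199610 on the minus strand for RPL22, chr3:170870181-170870210 on the minus strand for RPL22L1, chr17:8383179-8383208 on the minus strand for RPL26, chr5:172958714-172958743 on the plus strand for RPL26L1, chrX:101390996-101391025 on the plus strand for RPL36A, chr14:49620612-49620641 on the minus strand for RPL36AL, chr1:153990747-153990776 on the plus strand for RPS27 and chr15:63157463-63157492 on the minus strand for RPS27L.

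Library totals were 20.65 to 38.02 M counts (M, 1e6) in OE33 and 21.75 to 40.65 M in FLO1. Unexposed APEX1 was lower with each shRNA, by log2 fold changes of -3.02 ± 0.08 (shAPE1#1) and -3.14 ± 0.08 (shAPE1#3) in OE33 and -2.97 ± 0.09 and -2.42 ± 0.08 in FLO1 (± SE). Of 8 epithelial markers all 8 reached 1 CPM in OE33 and 5 in FLO1, where EPCAM, ESRP1 and CLDN7 did not; of 4 endothelial markers none did in either line. In both lines 1 of 7 fibroblast markers reached 1 CPM, and of 5 immune markers 2 did in OE33 and 1 in FLO1. Between the 2 unexposed shAPE1 groups of OE33 edgeR called no gene at an adjusted p under 0.05, while 571 genes were higher and 677 lower with shAPE1#3 before adjustment; DESeq2 called 30 genes, and edgeR 19 with GC correction. FLO1 shControl ABS replicate 2 stood apart in its dependence on GC content: its deviation from the line's mean log2 CPM rose with transcript GC at 0.332 per 10 percentage points over all genes and 0.284 over the members. The other FLO1 libraries had slopes of -0.143 to 0.111 over all genes and the OE33 libraries -0.085 to 0.181. The column of FLO1 shAPE1#3 ABS replicate 3 has an irregular name; leaving that library out changed the count of members called in a FLO1 comparison only for shAPE1#1 against shControl after ABS, to 1.

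Ribosomal protein genes took 6.40 to 8.63% of the counts in OE33 libraries and 5.22 to 6.99% in FLO1 libraries. Pseudogenes derived from them, 1065 of which are in the table, took 0.10 to 0.13% in OE33 and 0.041 to 0.050% in FLO1. How reads that fit several of these copies were assigned is not given in the sources used here, so the level of a member with near-identical copies is uncertain. In CPM per kilobase of coding sequence, the highest members over all libraries were RPL41 at 6271 (75 coding bases), RPS2 at 4800, RPL19 at 4655, RPS16 at 4324 and RPL8 at 4319. The lowest were 5 paralogues: RPL3L at 1.14, RPS27L at 83.4, RPL22L1 at 84.3, RPL26L1 at 126.5 and RPL39L at 156.9. Each lay below its canonical gene on this scale where that gene was compared, with RPL22 at 981, RPL26 at 714 and RPL39 at 1815. RPL36AL was the exception at 380, above RPL36A at 289. RPL7L1 and RPS19BP1 stood at 321 and 243.

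Members varied together from library to library. After removing group means from log2 CPM, the median correlation between 2 members was 0.819 over the 18 OE33 libraries and 0.786 over the 18 FLO1 libraries. The same value was 0.401 and 0.509 for 78 mitochondrial ribosomal protein genes and 0.470 and 0.483 for 32 proteasome subunits; libraries share depth and composition, so these are descriptions. With the GC correction (below) it was 0.842 in OE33 and 0.826 in FLO1 for the members. The members' median deviation was lowest in shAPE1#3 ABS replicate 3 in OE33, at -0.220, and in shAPE1#3 ABS replicate 1 in FLO1, at -0.205. In both lines it was highest in shAPE1#3 ABS replicate 2, at 0.159 in OE33 and 0.171 in FLO1. Replicates of that group thus spanned the range of each line, and 85 members moving as 1 block are not 85 separate observations of a condition.

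**Figure D1:**
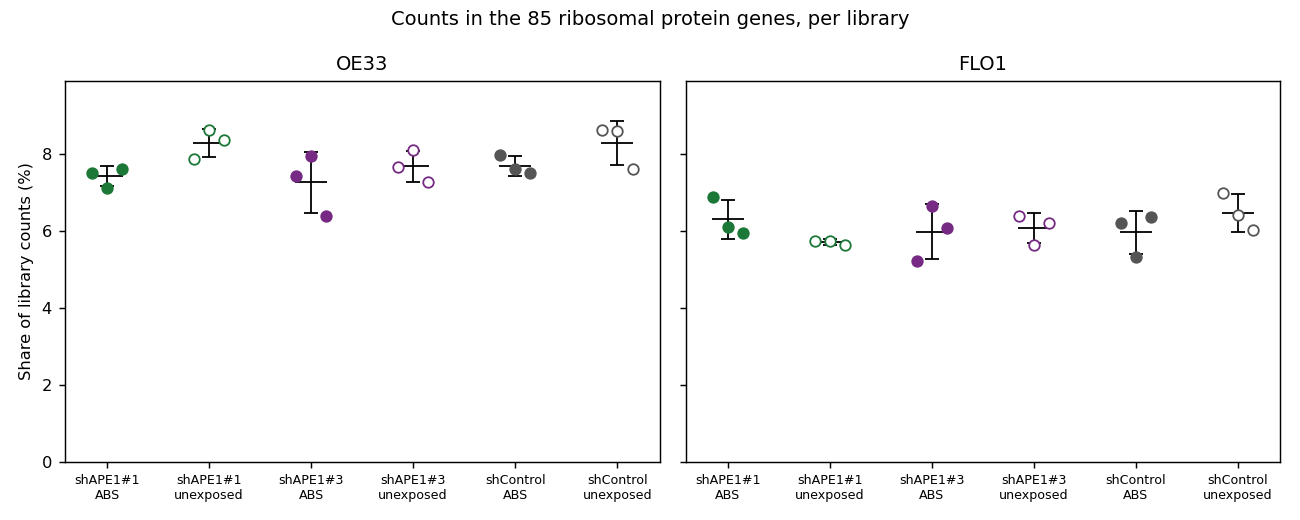
Share of each library's counts in ribosomal protein genes (y axis, percent) by group (x axis), with OE33 and FLO1 in separate panels; points are libraries and bars are means ± SD of 3. The shares of the ABS and unexposed libraries do not overlap only in shAPE1#1 cells, where ABS lies lower in OE33 and higher in FLO1.

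In shAPE1#1 cells the share was lower after ABS in OE33 and higher after ABS in FLO1. OE33 shAPE1#1 libraries held 7.51, 7.13 and 7.62% after ABS, against 7.89, 8.62 and 8.37% unexposed. FLO1 shAPE1#1 libraries held 6.88, 6.10 and 5.94% after ABS, against 5.75, 5.75 and 5.63% unexposed. ABS and unexposed libraries did not overlap in either line. In shAPE1#3 cells the groups overlapped, with 7.27 ± 0.794% after ABS against 7.68 ± 0.411% in OE33 and 5.98 ± 0.719% against 6.08 ± 0.385% in FLO1 (SD, n = 3). In shControl cells they overlapped too, with 7.70 ± 0.256% after ABS against 8.29 ± 0.572% in OE33 and 5.97 ± 0.568% against 6.48 ± 0.486% in FLO1 (SD, n = 3). CPM are relative to each library's total, so fewer transcripts of these genes and more of the others cannot be told apart. Nor do CPM give the amount of RNA per cell.

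The response of the members to ABS was first tested in OE33. Called means an adjusted p under 0.05 (edgeR, quasi-likelihood; Benjamini-Hochberg over all genes tested); RPL3L was too low to be tested in OE33, which left 84 members. With shAPE1#1, 8 members fell after ABS and none rose, which is 9.52% of the members against 1.71% of all genes called lower (4.73% called in either direction). The 8 were RPL26L1, RPL34, RPL41, RPL22, RPS24, RPL26, RPL23 and RPSA: 5 large subunit genes, 2 small subunit genes (RPS24 and RPSA) and the paralogue RPL26L1. Before adjustment 50 of 84 members were lower at p under 0.05, against 1513 of 15540 genes. A log2 fold change below 0 was found in 82 members, against 7927 of all genes. The median was -0.21 over members and -0.01 over all genes.

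RPL22, a protein that binds RNA outside the ribosome as well and is often mutated in tumors, had 291, 336 and 287 CPM after ABS, against 380, 364 and 393 CPM in unexposed shAPE1#1 cells. The libraries did not overlap, and the log2 fold change was -0.34 ± 0.08 (edgeR adjusted p = 0.0151). RPS24, a small subunit protein mutated in Diamond-Blackfan anemia, had 1088, 1235 and 1043 CPM after ABS, against 1392, 1323 and 1475 CPM unexposed. It fell by 0.34 ± 0.09 on the log2 scale (edgeR adjusted p = 0.0360), again without overlap. RPL26L1, the paralogue of RPL26, had 30.8, 30.3 and 34.1 CPM after ABS, against 43.3, 43.5 and 40.0 CPM unexposed, and its log2 fold change of -0.43 ± 0.11 was the largest of the 8 (edgeR adjusted p = 0.0248). RPSA, the laminin receptor protein of the small subunit, had the smallest, at -0.26 ± 0.07 (edgeR adjusted p = 0.0423). The remaining 4 were RPL34 (-0.39 ± 0.10), RPL41 (-0.36 ± 0.10), RPL26 (-0.32 ± 0.09) and RPL23 (-0.31 ± 0.09), with edgeR adjusted p of 0.0342, 0.0476, 0.0488 and 0.0393. The count rests on single libraries: it was 0 without shAPE1#1 replicate 3 or shAPE1#1 ABS replicate 1, 1 without shAPE1#1 ABS replicate 3, and 23, with all 8 among them, without shAPE1#3 ABS replicate 3 (5.83% of all genes called). A fit to only the 6 libraries compared called none, against 0.412% of all genes. DESeq2 called 16, against 1213 of the 33008 genes with any count (3.67%), a wider set than the 15540 genes tested by edgeR.

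With the other constructs of OE33 fewer members were called. In shControl cells 1 of 84 members, RPS7, fell and none rose, against 2.51% of all genes called lower and 8.40% called. Before adjustment 15 members were lower, against 1491 of 15540 genes. DESeq2 called 4 members, all lower. Of the 33008 genes with any count it called 542 lower and 1634 in either direction. RPS7, a small subunit protein that also binds MDM2, had 616, 647 and 644 CPM after ABS, against 790, 790 and 759 CPM unexposed. Its log2 fold change was -0.27 ± 0.09 (edgeR adjusted p = 0.0476), and the call was lost with the replicate block, with TMM computed without the members, and without each of 12 of the 18 libraries. In shAPE1#3 cells no member was called by edgeR or by DESeq2, against 2.26% of all genes. Before adjustment 1 member was higher and 7 were lower, against 1414 and 1012 of 15540 genes. There RPL22L1 had a log2 fold change of -0.30 and RPS24 one of -0.22, while RPL28 had 0.25 and RPS9 0.08; none of these passed. The median over members was -0.10 in both comparisons and -0.01 with shAPE1#3 once ABS replicate 3 of that group was left out.

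In FLO1 the member that rose after ABS was RPL3L, the muscle paralogue of RPL3, which lies at the bottom of the members' range. In shControl cells it had 3.26, 2.48 and 3.22 CPM after ABS, against 1.66, 1.32 and 1.18 CPM unexposed (log2 fold change 1.06 ± 0.21, edgeR adjusted p = 0.00412). In shAPE1#3 cells it had 3.64, 4.31 and 4.01 CPM after ABS, against 1.85, 2.63 and 1.32 CPM unexposed (0.98 ± 0.19, edgeR adjusted p = 0.00421). The libraries did not overlap in either, but at 1 to 4 CPM these are small counts. RPL3L was the single member called of 85 in each. Of all genes 2.48% were higher (3.00% called) in shControl and 1.53% higher (1.81% called) in shAPE1#3 cells. DESeq2 added 1 lower member in shControl cells, where it called 252 of the 35147 genes with any count lower. In shAPE1#1 cells no member was called by edgeR or DESeq2, against 5.01% of all genes. Before adjustment 6 members were higher, against 1544 of 16868 genes. Values reached 0.45 for RPL22L1 and 0.44 for RPL36A at the top and -0.06 for RPLP0 and -0.04 for RPS2 at the bottom.

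Small shifts of 1 sign ran through nearly the whole set in FLO1. After ABS 82 of 85 members were below 0 in shControl cells, with a median log2 fold change of -0.20, whereas 81 were above 0 in shAPE1#1 cells, with a median of 0.17. In shAPE1#3 cells the median was -0.05. Over all genes the median was -0.01 in shControl and in shAPE1#3 cells. Of 16868 genes, 8661 were below 0 in shControl cells and 8418 above 0 in shAPE1#1 cells. The members' median in shControl cells was -0.10 without FLO1 shControl ABS replicate 2, the library with the steep GC slope. Without that library edgeR called 8 members higher in shAPE1#1 cells (RPL22L1, RPL27A, RPL35, RPL35A, RPL36A, RPS25, RPS27 and RPS3A), against 6.89% of all genes higher and 12.6% called, although it belongs to neither group compared. A fit to only the shAPE1#1 libraries called 31 members higher, against 7.90% of all genes higher and 14.4% called.

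Whether knockdown altered the ABS response was tested as an interaction, the mean response of both kinds of shAPE1 cells minus that of shControl cells. With edgeR no gene was called in OE33 or FLO1 (0% of all genes), while 255 genes were higher and 433 lower before adjustment in OE33, and 343 and 392 in FLO1. DESeq2 called 24 genes in OE33 and 3 in FLO1, none of them a member. In FLO1 the interaction was above 0 in 84 of 85 members, with a median of 0.25, against 8267 of 16868 genes above 0. Before adjustment 13 members were higher, against 343 of all genes. RPL36A (0.48) and RPL34 (0.45) lay at the top, with RPL3L (-0.37) and RPS2 (0.00) at the bottom. The median was 0.16 without FLO1 shControl ABS replicate 2. In OE33 the median was -0.04 and no member passed before adjustment, with a range from RPL26L1 at -0.22 and RPL38 at -0.19 to RPS19BP1 at 0.09 and RPL22L1 at 0.10.

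Of all genes 8.13 to 10.5% were called lower with knockdown in each of the 4 OE33 comparisons. How many genes were lower in all 4 is not reported here. Knockdown lowered 1 member by the same test in all 4 comparisons of OE33: RPL22L1. Its unexposed level was 43.0, 35.1 and 48.3 CPM with shAPE1#1 and 44.3, 42.0 and 37.5 CPM with shAPE1#3, against 65.2 CPM in each of the 3 shControl libraries. No knockdown library reached the shControl level. The log2 fold changes were -0.63 ± 0.12 (edgeR adjusted p = 0.000406) and -0.64 ± 0.12 (edgeR adjusted p = 0.000322). After ABS it had 40.9, 39.0 and 29 CPM with shAPE1#1 and 35.0, 36.8 and 28.4 CPM with shAPE1#3, against 44.4, 54.3 and 50.7 CPM in shControl cells. These groups did not overlap either, with log2 fold changes of -0.50 ± 0.12 (edgeR adjusted p = 0.00433) and -0.57 ± 0.12 (edgeR adjusted p = 0.00123). All 4 calls held in each of the 8 alternative fits and without each of the 18 OE33 libraries. The same shControl libraries serve both shRNAs, so the comparisons of a pair are not independent of each other. Between the 2 shRNAs, unexposed, edgeR called 0 of 15540 genes in OE33, against 2054 of 16868 in FLO1. Whether the shAPE1 groups of OE33 are separate knockdowns was not tested.

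RPL22, the canonical partner of RPL22L1, was not called in any of these. Unexposed OE33 cells had 380, 364 and 393 CPM of RPL22 with shAPE1#1 and 343, 366 and 314 CPM with shAPE1#3, against 360, 378 and 357 CPM with shControl, and these ranges overlapped. In FLO1 RPL22L1 was lower overall and not called with either shRNA. It had 17.3, 14.7 and 14.8 CPM with shAPE1#1 and 13.4, 12.8 and 16.1 CPM with shAPE1#3, against 15.6, 20.5 and 15.4 CPM with shControl, all unexposed. The difference between the lines in the knockdown effect on RPL22L1, OE33 minus FLO1, was -0.43 and did not pass (edgeR adjusted p = 0.249), but passed with GC and length corrected together (edgeR adjusted p = 0.0491).

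**Figure D2:**
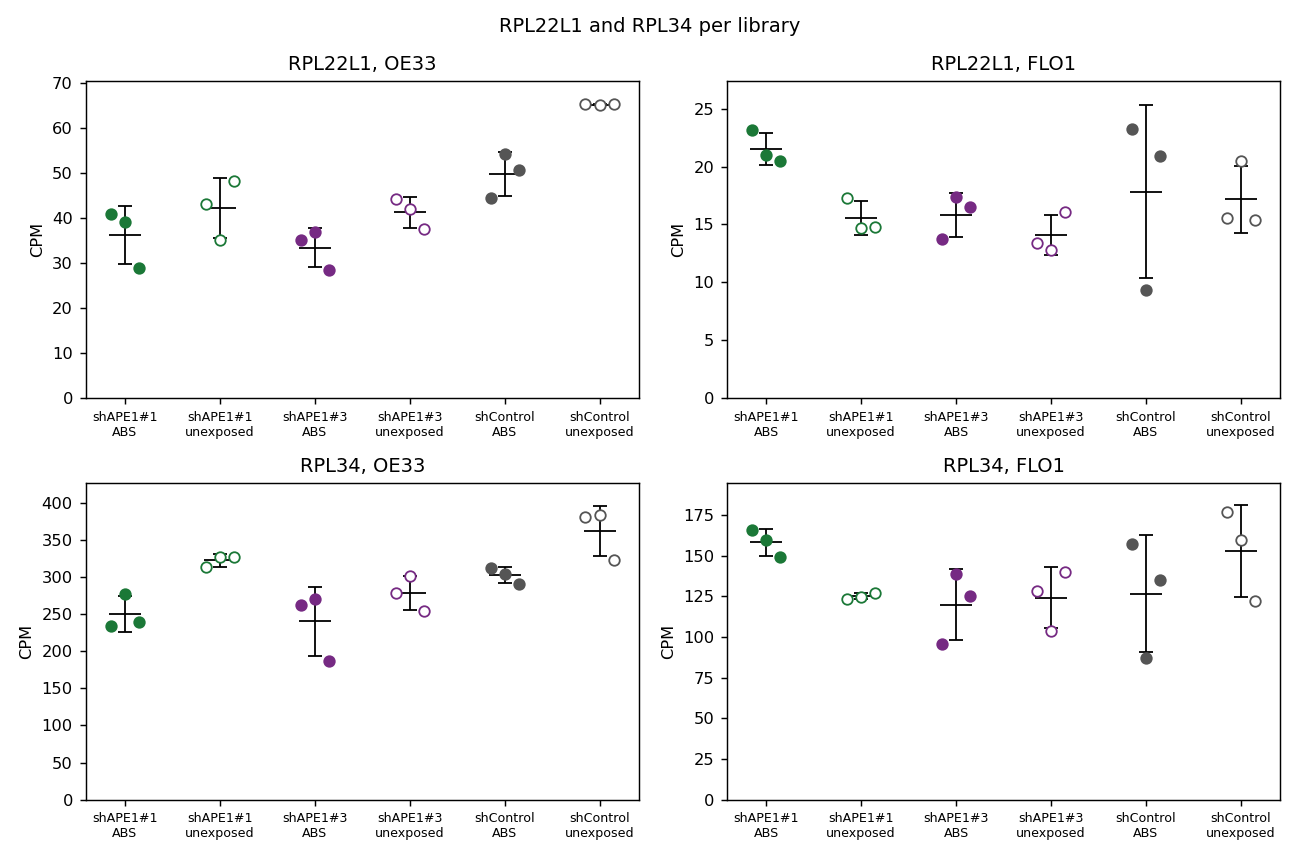
Levels of RPL22L1 and RPL34 in CPM (y axis, from 0) by group (x axis) in OE33 and FLO1; points are the 3 libraries and bars the mean ± SD. In OE33 both shAPE1 groups lie below shControl for RPL22L1, unexposed and after ABS, while in FLO1 the groups overlap when unexposed.

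Few members moved beside RPL22L1 in OE33. With shAPE1#1 it was the single member called of 84 unexposed, against 8.13% of all genes lower (16.4% called). With shAPE1#3, 5 members (5.95%) were lower and none higher when unexposed, against 10.5% of all genes lower and 21.7% in either direction. Those besides RPL22L1 were RPL39 (-0.37 ± 0.09, edgeR adjusted p = 0.00487), RPL34 (-0.36 ± 0.10, edgeR adjusted p = 0.0149), RPS3A (-0.25, edgeR adjusted p = 0.0320) and RPL10A (-0.24, edgeR adjusted p = 0.0275). After ABS 6 members were lower with shAPE1#1, against 8.46% of all genes lower (15.8% called), and 5 with shAPE1#3, against 9.31% lower (18.1% called). In each case the share of members called was below that of all genes. RPL22L1, RPL34, RPL39 and RPS18 were among those called with each shRNA after ABS; RPS18 had -0.37 (edgeR adjusted p = 0.0144) and -0.34 (edgeR adjusted p = 0.0210). RPL31 (-0.35) and RPL26L1 (-0.32) with shAPE1#1, and RPL10A (-0.23) with shAPE1#3, made up the rest.

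RPL34 and RPL39, large subunit proteins with a TOP tract in the windows above, were called together in 3 of the 4 comparisons, and in none of them after GC correction (below), when RPL34 was not called and RPL39 was called in 2. Unexposed RPL34 had 279, 302 and 255 CPM with shAPE1#3 and 313, 327 and 327 CPM with shAPE1#1, against 380, 383 and 322 CPM with shControl; only shAPE1#3 was called, and only its libraries lay below all shControl libraries. RPL39, which lines the exit tunnel, had 299, 317 and 273 CPM with shAPE1#3 and 325, 332 and 356 CPM with shAPE1#1, against 396, 402 and 364 CPM with shControl. Its libraries did not overlap shControl with either shRNA, but only shAPE1#3 passed. Between the 2 shRNAs no member was called by edgeR, against 0% of all genes, or by DESeq2, which called 30 genes. Before adjustment 2 members were lower with shAPE1#3, against 677 of 15540 genes. The count with shAPE1#3 unexposed was 12 without shControl replicate 3 (18.2% of all genes called), and 2 without either of the other shControl replicates or without shAPE1#3 replicate 1 or 3.

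In FLO1 knockdown called 2 members with unexposed shAPE1#1, 1 higher and 1 lower, against 4.52% of all genes higher and 2.22% lower (6.74% called). RPL3L had 2.57, 2.19 and 2.33 CPM with shAPE1#1, against 1.66, 1.32 and 1.18 CPM with shControl (0.76 ± 0.21, edgeR adjusted p = 0.0297). Its values did not overlap between groups. The count of members called was 0 without shControl replicate 2 or 3 or any shAPE1#1 replicate, 1 without shControl replicate 1, and 16 without shControl ABS replicate 2 (13.3% of all genes called). In this comparison 81 of 85 members were below 0, 18 of them at p under 0.05 before adjustment, and the median was -0.19. Of 16868 genes 8895 were below 0, and 1448 were lower at p under 0.05 before adjustment. With shAPE1#3 no member was called by edgeR or DESeq2, against 0.788% of all genes. Before adjustment 1 member was higher and 3 were lower, against 721 and 829 of 16868 genes. RPS12 had -0.36 and RPL36A -0.34 there, and RPL3L 0.49 and RPS2 0.03.

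After ABS 2 FLO1 members were higher with shAPE1#1, against 8.26% of all genes higher (16.6% called). RPL36AL, the paralogue of RPL36A without the motif at its listed start, had 148, 123 and 125 CPM with shAPE1#1, against 113, 84.7 and 104 CPM with shControl (0.42 ± 0.11, edgeR adjusted p = 0.0106). RPS26, which contacts the mRNA near the exit site, had 351, 291 and 294 CPM with shAPE1#1, against 282, 211 and 275 CPM with shControl (0.31 ± 0.10, edgeR adjusted p = 0.0389). The lowest shControl value of both genes was in the replicate with the steep GC slope. Without it 1 of the 2 calls was left, and without shAPE1#1 ABS replicate 1 none; without shControl ABS replicate 1, 9 members were called, against 26.3% of all genes. With shAPE1#3 after ABS edgeR and DESeq2 called no member, against 0.783% of all genes by edgeR. Before adjustment 1 member was higher, against 648 of 16868 genes. The members' values ran from RPL10 at -0.18 and RPL22L1 at -0.17 to RPL39L at 0.12 and RPL3L at 0.41. Between unexposed shAPE1#3 and shAPE1#1 no member was called by edgeR or DESeq2, against 12.2% of all genes. Before adjustment 4 members were higher, against 1920 of 16868 genes. The range of the members went from RPL3L at -0.28 and RPS27L at -0.24 to RPL12 at 0.27.

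**Figure D3:**
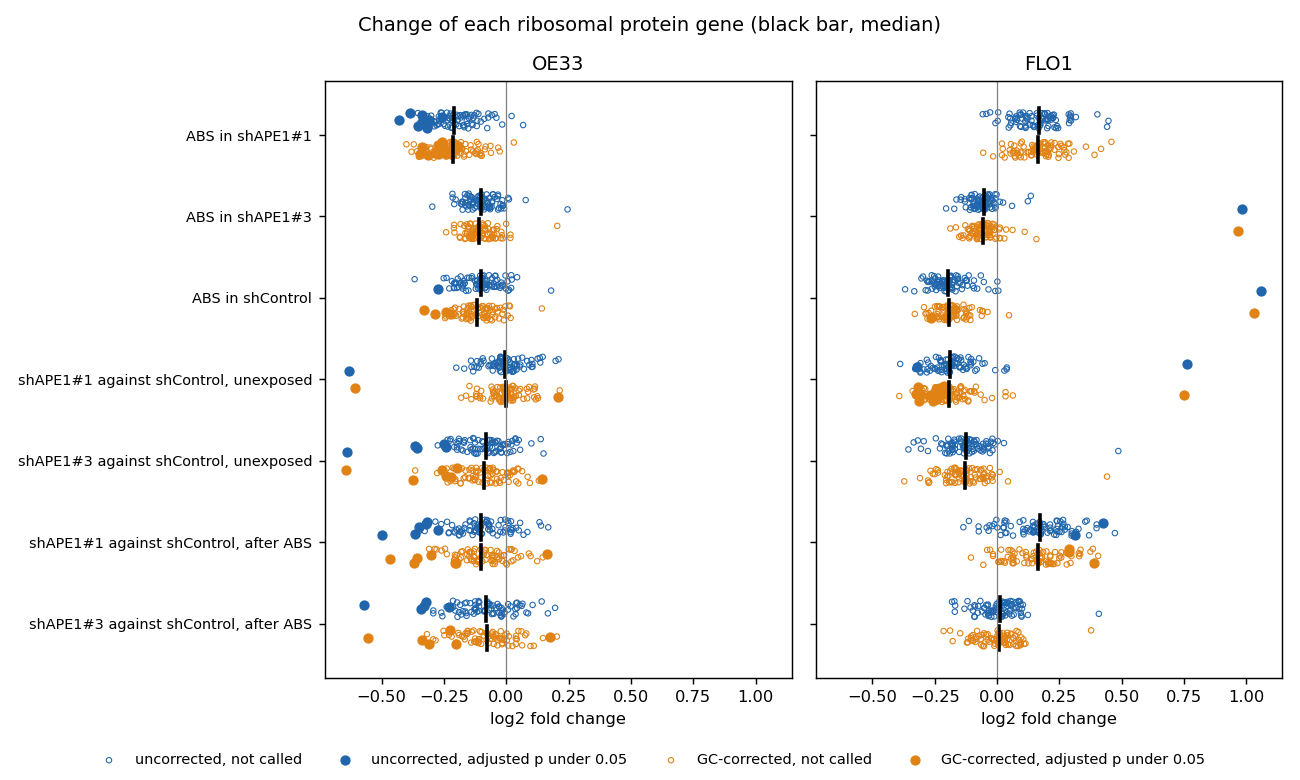
Log2 fold changes of all tested members (x axis) in each comparison within a line (y axis), OE33 and FLO1 in separate panels, before (blue) and after (orange) correction for GC content; each point is 1 member, filled where called, and black bars are medians. The points of a comparison form a narrow band that the correction leaves in place, with RPL22L1 apart at the left in the OE33 knockdown comparisons and RPL3L apart at the right in several FLO1 comparisons.

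Correction for GC content was then applied, since read counts can depend on transcript GC and the dependence differed between libraries. The members are close to the other genes in this respect, with a median transcript GC of 49.2% against 49.9% in OE33 and 49.5% against 50.7% in FLO1, but are shorter, with a median of 835 bases against 2577 in FLO1. The correction left the members' medians nearly in place: -0.22 with it and -0.21 without it for OE33 shAPE1#1 after ABS, -0.19 and -0.20 for FLO1 shControl after ABS, and 0.16 and 0.17 for FLO1 shAPE1#1 after ABS. It changed which members passed. A correction for GC and length together brought the median of OE33 shAPE1#1 after ABS to -0.13 and that of FLO1 shAPE1#1 after ABS to 0.10.

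More genes were called after GC correction, members included in most comparisons. In OE33 shAPE1#1 after ABS 18 members were lower (21.4%), against 4.43% of all genes called lower and 10.1% called. Only RPL22, RPS24 and RPSA were called both ways; RPL26L1, RPL34, RPL41, RPL26 and RPL23 were not called after correction, and 15 members, such as RPS27L, RPL39L, RPL21 and RPS15A, were called only then. In FLO1 with unexposed shAPE1#1, 13 members were lower (15.3%), against 7.68% of all genes called lower and 17.5% called. The 12 called lower only after the correction included RPS27A (-0.32), which is made as a ubiquitin fusion, RPL37A (-0.32) and RPL12 (-0.31). Leaving out FLO1 shControl ABS replicate 2 in place of the correction called 16 members in this comparison, of which 10 were among the 14 called after correction. RPS27A had 467, 476 and 480 CPM with shAPE1#1, against 624, 621 and 517 CPM with shControl, without overlap.

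Elsewhere the correction moved counts by a few members. With the correction, 11.6 to 16% of all genes were called higher in each of the 4 knockdown comparisons of OE33. RPL22L1 remained called in all 4 knockdown comparisons of OE33, while RPL7L1, the assembly factor, was called higher in all 4 only after correction, by 0.21 and 0.14 unexposed with shAPE1#1 and shAPE1#3, and by 0.16 and 0.18 after ABS. Its unexposed CPM were 276, 240 and 279 with shAPE1#1 and 256, 248 and 253 with shAPE1#3, against 219, 236 and 238 with shControl, without overlap. RPL34 lost its call in all 3 knockdown comparisons in which it had one, though its log2 fold changes stayed close. These were -0.37 with shAPE1#3 unexposed (edgeR adjusted p = 0.0565), and after ABS -0.29 with shAPE1#1 (edgeR adjusted p = 0.151) and -0.32 with shAPE1#3 (edgeR adjusted p = 0.102). With shAPE1#1 after ABS RPL39 (-0.25, edgeR adjusted p = 0.120) and RPL26L1 lost theirs too, while RPL39 kept both calls with shAPE1#3. With shAPE1#3 unexposed RPS9 and RPL3 gained a call. In OE33 shControl after ABS 4 members were lower, against 15.4% of all genes called, and with shAPE1#3 after ABS none, against 5.14%. Against shControl in OE33, 2 members were called with unexposed shAPE1#1 and 7 with unexposed shAPE1#3 (23.9% and 29.6% of all genes), and 7 and 6 after ABS (23.2% and 26.1%). In FLO1 shControl after ABS RPS26 (-0.27) and RPL7L1 (-0.20) were added, against 9.13% of all genes called. In FLO1 shAPE1#1 after ABS none was called with the correction, against 13.8% of all genes; with shAPE1#3 RPL3L alone was called, against 6.67%. RPS19BP1 (0.39) was added with shAPE1#1 against shControl after ABS in FLO1, against 24.9% of all genes, and RPL5 (0.20), a binding partner of MDM2, between the 2 FLO1 shRNAs unexposed (22.5%). No member was called with FLO1 shAPE1#3 against shControl, unexposed (3.23% of all genes) or after ABS (3.49%), nor in the interactions (0.0237% in FLO1 and 0.187% in OE33) or between the OE33 shRNAs (0.122%).

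The widest differences among the members lay between the lines. In unexposed shControl cells 49 of 85 members (57.6%) were higher in OE33 than in FLO1 and 11 (12.9%) lower, against 37.6% and 39.9% of all genes (77.6% called in either direction). By role, 26 large subunit genes were higher and 5 lower of 43, 17 small subunit genes higher and 4 lower of 31, and 2 of the 3 P stalk genes higher. The median log2 fold change over members was 0.38, against -0.06 over all genes. After GC correction it was 0.46 against 0.02, with 61 members higher and 9 lower (40.9% of all genes higher, 79.2% called). Of the 60 first called, 57 were called again after correction, counted without regard to direction. With GC and length corrected together the median was 0.57, still above 0. Line, medium and any difference in growth rate cannot be told apart.

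Single members differed far more than the set. RPL23, a large subunit protein that binds MDM2, had 2898, 2981 and 2562 CPM in OE33, against 533, 510 and 378 CPM in FLO1, a log2 fold change of 2.70. RPL19, another large subunit protein, had 4749, 4713 and 4262 CPM in OE33, against 1231, 1178 and 1114 CPM in FLO1 (2.09). RPL22L1 (2.06), RPL23A (1.63), RPS24 (1.54) and RPL9 (1.51) followed. For RPL23A the OE33 libraries had 1617, 1636 and 1443 CPM, against 579, 578 and 506 CPM in FLO1, and like those of RPL23 and RPL19 they did not overlap. In the other direction RPS16 had 1158, 1192 and 948 CPM in OE33, against 3394, 2642 and 2644 CPM in FLO1 (-1.26 ± 0.13). RPL3L was near 0 in OE33, with 0.0739, 0.106 and 0.0687 CPM, against 1.66, 1.32 and 1.18 CPM in FLO1 (-3.86 ± 0.39). RPL17 (-0.73), RPL26L1 (-0.71) and RPL37 (-0.54) were also lower. RPL3L met the minimum of 1 CPM through FLO1 alone, so its lower level in OE33 is tied to the rule that made it a member. Apart from it, RPL22L1 was higher in OE33 while RPL26L1 was lower, so the paralogues did not differ in 1 direction.

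**Figure D4:**
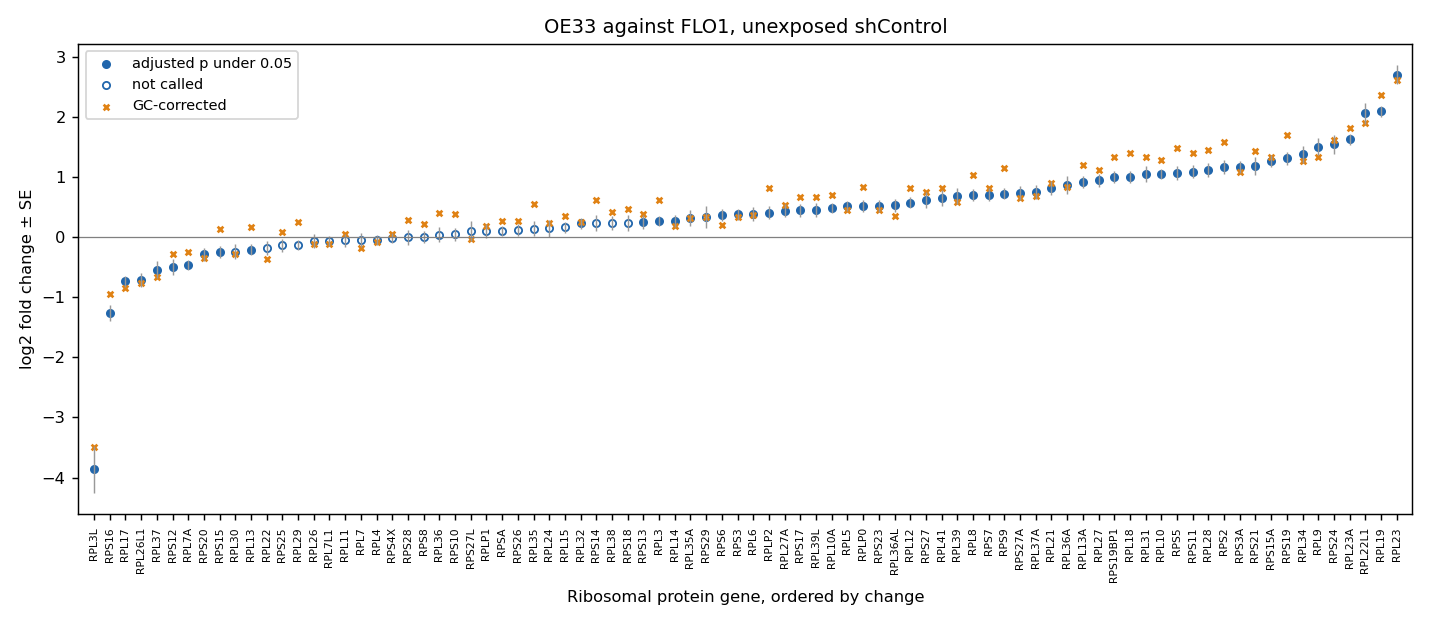
Log2 fold change ± SE of the members named on the x axis, ordered by change, OE33 against FLO1 in unexposed shControl cells (y axis); circles are uncorrected values, filled where called, and crosses are GC-corrected values. RPL23, RPL19 and RPL22L1 stand at the right end above 2, and RPL3L at the left end at -3.86, with most members between RPS16 and RPL23A on a gradual slope. RPL3L is a member through its FLO1 level alone.

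RPL19 and RPL23 lie near ERBB2 on chromosome 17, a region often amplified in esophageal adenocarcinoma. Genes around them were higher in OE33 too: ERBB2 by 3.63, GRB7 by 8.20, MIEN1 by 3.55, PGAP3 by 3.39, LASP1 by 2.85, STARD3 by 2.77, PCGF2 by 2.64, PSMB3 by 1.77, CDK12 by 1.73 and MED1 by 1.36 on the log2 scale. For each member the median change of the other genes starting within 1 Mb was computed, over at least 5 genes for all 85. These medians were 2.02 for the 37 neighbours of RPL23, 1.85 for the 45 of RPL19 and -1.94 for the 58 of RPS16, against -0.06 over all other genes. Over the 85 members the change of a member and that of its neighbours had a Pearson r of 0.546 and a Spearman rho of 0.667, and 0.476 and 0.643 without RPL19 and RPL23. This describes 1 pair of lines, and adjacent members share neighbours. Not every member followed: RPL22L1 was at 2.06 where its 9 neighbours had a median of 0.17. RPL3L was at -3.86 where its 96 had 0.46, but it is a member through its FLO1 level alone. The copy number of these regions was not measured here, and its part in the differences was not tested.

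**Figure D5:**
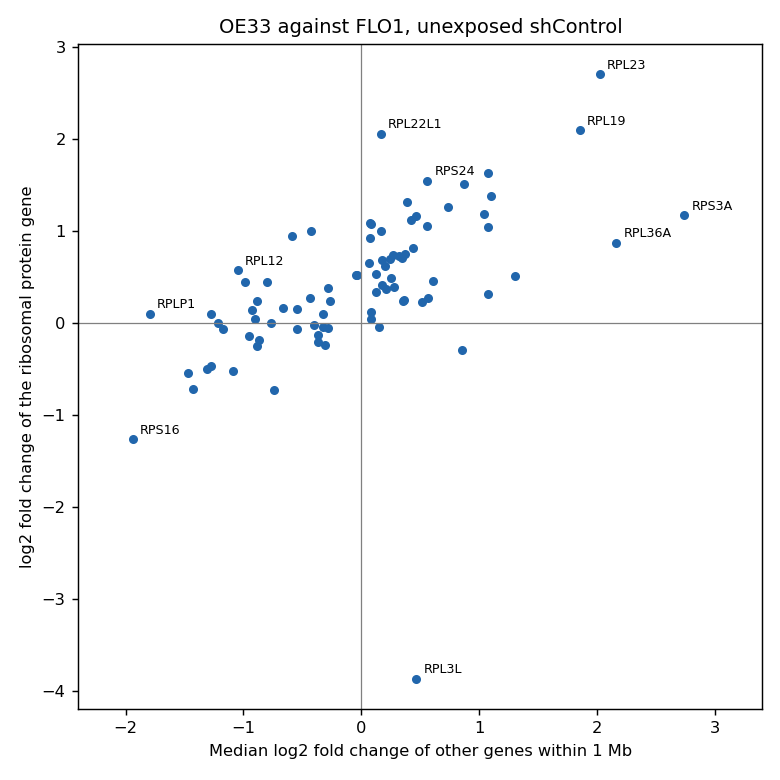
Log2 fold change, OE33 against FLO1, of each member (y axis) against the median of the other genes starting within 1 Mb of it (x axis); each point is 1 of 85 members. RPL23 and RPL19 lie at the upper right and RPS16 at the lower left, while RPL22L1 lies high with neighbours near 0.

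Differences between the lines in the effects of ABS or knockdown were not called for any member by edgeR without correction. For the ABS response in shControl cells, OE33 minus FLO1, no member was called by edgeR or DESeq2, against 1.73% of all genes, and none passed before adjustment; 1 was called without FLO1 shControl ABS replicate 2, against 4.76% of all genes. The range went from RPL22L1 at -0.38 and RPS19BP1 at -0.22 to RPL38 at 0.26 and RPS29 at 0.29, with a median of 0.09. For the mean unexposed knockdown effect edgeR called no member, against 6.37% of all genes. Before adjustment 2 members were higher and 1 lower, against 1535 and 1827 of 18199 genes. DESeq2 called RPL7L1 (0.23, DESeq2 adjusted p = 0.0436). RPS12 had 0.28 and RPS26 0.27, and RPS27L -0.13. After GC correction RPL7L1 (0.22) was called for knockdown, against 13.1% of all genes, and no member for the ABS response. With GC and length corrected together, RPSA (0.18), RPS26 (0.27) and RPL22L1 (-0.43) were called beside it, against 16.2% of all genes.

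Among the ribosomal proteins that the symbol rule leaves out are FAU, made as a fusion with a ubiquitin-like protein, and RACK1, which sits on the small subunit. Neither was called in a comparison within a line. OE33 was higher than FLO1 for FAU (0.60 ± 0.11, edgeR adjusted p = 1.62e-05) and lower for RACK1 (-0.43 ± 0.10, edgeR adjusted p = 0.000239). RACK1 lost its call after GC correction, when FAU was called lower after ABS in OE33 shAPE1#1 cells (-0.33).

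Lists of related genes were read beside the members. In FLO1 the hosts of small nucleolar RNAs, which are TOP RNAs without a protein product, rose after ABS for 3 of 17 genes in shControl, 5 in shAPE1#1 and 4 in shAPE1#3 cells, and none fell; of all genes 2.48, 2.94 and 1.53% were called higher in these comparisons. SNHG5 had 0.52, 0.74 and 0.69. Ribosome biogenesis factors rose in 1, 5 and 0 of 60 there, with RRP12, an export factor of ribosomal subunits, at 0.51 with shAPE1#1. In OE33 no snoRNA host passed after ABS, and RRP12 rose by 0.40 in shControl and 0.31 in shAPE1#3 cells. Mitochondrial ribosomal proteins fell for 9 of 78 genes in OE33 shControl and 5 in shAPE1#1 cells after ABS, against 2.51% and 1.71% of all genes. Of 27 other known TOP mRNAs 3 fell in OE33 shAPE1#1 cells after ABS, among them EEF1B2 (-0.27) and COX7C (-0.32), and none rose; of 10 elongation factors 2 fell, and of 37 initiation factors 1, against the same 1.71% of all genes.

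With knockdown in unexposed OE33, biogenesis factors were higher in 14 and lower in 3 of 60 with shAPE1#3, and in 6 and 2 with shAPE1#1. Of all genes 11.2% were higher and 10.5% lower with shAPE1#3, and 8.24% and 8.13% with shAPE1#1, which applies to the other lists of this comparison too. RRS1 and GAR1 were among the lower biogenesis factors and BOP1 among the higher with both. Of 28 MYC and mTORC1 regulators 2 were higher and 2 lower with shAPE1#1, and 3 and 2 with shAPE1#3; MYC was higher by 0.40 and 0.39. In the same cells initiation factors were higher in 6 and 5 of 37 with shAPE1#3 and shAPE1#1, and EIF3C was the largest with both. Of 15 RNA polymerase I genes 3 passed with shAPE1#3 (2 higher) and none with shAPE1#1, and of 32 proteasome subunits 3 were higher and 4 lower with shAPE1#3. Between the lines, OE33 against FLO1, 41 of 78 mitochondrial ribosomal proteins were higher (52.6%) and 23 lower (29.5%), against 37.6% and 39.9% of all genes. Proteasome subunits were higher in 10 (31.2%) and lower in 15 (46.9%) of 32, initiation factors in 21 (56.8%) and 11 (29.7%) of 37, and biogenesis factors in 25 (41.7%) and 12 (20.0%) of 60.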

How the data were processed

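Polyadenylated RNA was sequenced from 36 libraries, 3 in each of 12 groups. The deposited table holds raw read counts per Ensembl gene; the submitters' processing notes name Trimmomatic 0.36, STAR 2.5.2b, featureCounts, Subread 1.5.2 and GRCh38. How multiply mapped reads and strand were handled, and with which annotation, was not given in the sources used here. Symbols, GC content and lengths were taken from GENCODE 29; IDs without a record held 0.0183% of the counts.

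Counts were fitted in edgeR 4.0.16 (R 4.3.3) per line over 18 libraries, or over all 36 for differences between lines, by the quasi-likelihood method (robust, TMM-normalized, filterByExpr, 1 coefficient for each group), with p-values adjusted after Benjamini-Hochberg over all genes tested (15540 in OE33, 16868 in FLO1, 18199 in both) and a threshold of 0.05. The procedure was tested on simulated data. Printed CPM are counts over the library total, without TMM. For the GC correction, each library's deviation from the mean log2 CPM of the libraries in that fit was smoothed against transcript GC and used as an offset. In comparisons between the lines that mean was over all 36 libraries. A smooth dependence on GC that differed between the lines was thus part of the offset there.

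Alternatives were GC and length correction, DESeq2 1.42.0, no filter, a replicate block with and without GC correction, a fit to only the groups compared, TMM without the members, and each library left out. Named members followed a rule: the highest and lowest per length, all paralogues, up to 6 called each way per comparison, the largest uncalled otherwise, and those whose call changed with GC correction; values of some genes under this rule are not reported here. The members and lists were chosen with earlier results of these data known.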

Additional observations from a re-analysis of the deposited data

Results flagged for a closer look

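The share of counts in ribosomal protein genes moved in opposite directions after ABS in shAPE1#1 cells of the 2 lines. The mean change was -0.870 percentage points in OE33, where all 3 ABS libraries lay below all unexposed ones, and 0.594 percentage points in FLO1, where all 3 lay above. The difference between the lines was not tested.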

How the results depend on the processing

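No call in a comparison within a line reversed its direction under any setting run. For OE33 against FLO1 the direction of single calls was not compared across settings. The median log2 fold change over the members kept its sign under GC correction, GC and length correction and TMM without the members, except where it lay close to 0: FLO1 shAPE1#3 against shControl after ABS (0.01, and -0.01 with GC and length) and OE33 shAPE1#1 against shControl unexposed. For OE33 against FLO1 it was 0.57 with GC and length corrected, against 0.38. The number of members called depended far more on the setting, and the cause was not tested. The number of all genes called changed with the setting too. A count of members without a share beside it is therefore not a result about the members. Calls in OE33 against FLO1 stayed between 56 and 64 without each library. Each call within a line was refitted under 8 alternatives and without each of the 18 libraries of its line. Of these single-gene results 211 no longer passed.

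After ABS in OE33 shAPE1#1 cells (8 members called) the count was 18 with GC correction, 14 with GC and length, 16 with DESeq2, 29 without a filter, 5 with TMM without the members and 0 when fitted to the compared groups alone. For OE33 shControl after ABS (1 called) it was 4, 4, 4, 5, 0 and 16 in the same order. For OE33 shAPE1#3 after ABS (none called) it was 1 without a filter and 1 when fitted to the compared groups alone. For FLO1 shControl after ABS (1 called) it was 3 with GC correction, 9 with GC and length, 2 with DESeq2, 2 without a filter and 0 when fitted to the compared groups alone. For FLO1 shAPE1#1 after ABS (none called) it was 1 with GC and length, 10 without a filter and 31 when fitted to the compared groups alone. For FLO1 shAPE1#3 after ABS (1 called) it was 2 with GC and length. Calls over all genes rose as well with GC and length. In OE33, of 15540 genes, they went from 735 to 1698 with shAPE1#1 and from 1306 to 2604 in shControl cells. In FLO1, of 16868 genes, these were 506 and 2274 in shControl, 845 and 2560 with shAPE1#1, and 306 and 1753 with shAPE1#3.

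Against shControl, unexposed FLO1 shAPE1#1 (2 called) gave 14 with GC correction, 22 with GC and length, 4 with DESeq2, 6 without a filter and 31 when fitted to the compared groups alone. FLO1 shAPE1#3 unexposed (none called) gave 1 with GC and length, 1 without a filter and 1 when fitted to the compared groups alone. FLO1 shAPE1#1 after ABS (2 called) gave 4 with GC and length, 19 without a filter and 0 when fitted to the compared groups alone. OE33 shAPE1#1 unexposed (1 called) gave 2 with GC correction, 7 with GC and length, 2 with DESeq2 and 2 without a filter. OE33 shAPE1#3 unexposed (5 called) gave 12 with GC and length, 16 without a filter and 21 when fitted to the compared groups alone. After ABS, OE33 shAPE1#1 (6 called) gave 10 with GC and length and 16 without a filter, and OE33 shAPE1#3 (5 called) gave 17 and 10. FLO1 shAPE1#3 against shAPE1#1 unexposed (none called) gave 1 with GC correction, 11 with GC and length, 1 without a filter and 20 when fitted to the compared groups alone. The line difference of the knockdown effect (none called) gave 1 with GC correction, 4 with GC and length, 1 with DESeq2 and 2 when fitted to the compared groups alone. Calls over all genes rose with GC and length here too. Unexposed FLO1 went from 1137 to 3630 genes with shAPE1#1 and from 133 to 888 with shAPE1#3. FLO1 shAPE1#1 after ABS went from 2795 to 4536. Unexposed OE33 went from 2544 to 4288 with shAPE1#1 and from 3367 to 5029 with shAPE1#3. After ABS in OE33 these were 2456 and 4099, and 2806 and 4584. Between the FLO1 shRNAs they were 2054 and 4446, and for the line difference 1159 and 2940.

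Replicates with the same number were not treated as pairs in the main fit. In no comparison did every pair deviate together with a correlation above 0.1, and the lowest was -0.288. Whether libraries of the same number were handled together cannot be read from these correlations. With the replicate block the count was 1 for FLO1 shAPE1#1 against shControl unexposed, 1 for the same after ABS, 0 for OE33 shControl after ABS and 8 for OE33 shAPE1#3 against shControl after ABS. The block with GC correction gave 3 for FLO1 shControl after ABS, 10 for FLO1 shAPE1#1 against shControl unexposed, 7 for OE33 shControl after ABS, 36 for OE33 shAPE1#1 after ABS, 2 and 15 for OE33 shAPE1#1 and shAPE1#3 against shControl unexposed, 11 and 16 for the same after ABS, and 1 for the line difference of the knockdown effect.

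With each library left out, OE33 shAPE1#1 after ABS ranged from 0 to 23 called. It was 2 without shControl ABS replicate 2 or shAPE1#1 replicate 1, 3 without shControl replicate 2, shControl ABS replicate 3 or shAPE1#3 replicate 1, 4 without shControl replicate 1, shControl ABS replicate 1, shAPE1#3 replicate 3 or shAPE1#3 ABS replicate 1, and 5 without replicate 2 of shAPE1#1, shAPE1#1 ABS or shAPE1#3. OE33 shControl after ABS ranged from 0 to 5: it was 0 without any replicate of shControl, shControl ABS or shAPE1#3, or without replicate 1 of shAPE1#1 or shAPE1#3 ABS, and 2 without shAPE1#1 replicate 3 or shAPE1#3 ABS replicate 2. It was 3 without shAPE1#1 replicate 2 or shAPE1#1 ABS replicate 3, and 5 without shAPE1#3 ABS replicate 3. OE33 shAPE1#1 unexposed ranged from 1 to 2, with 2 without shControl ABS replicate 1, shAPE1#1 replicate 2, shAPE1#1 ABS replicate 2 or 3, or shAPE1#3 ABS replicate 3. OE33 shAPE1#3 unexposed ranged from 2 to 12, with 10 without shAPE1#3 ABS replicate 3. After ABS OE33 shAPE1#1 ranged from 1 (without shControl ABS replicate 1 or 2, or shAPE1#1 ABS replicate 1) to 9, with 3 without shControl replicate 2 or shAPE1#1 replicate 3. OE33 shAPE1#3 after ABS ranged from 1 (without shControl ABS replicate 1 or 2, or shAPE1#3 ABS replicate 3) to 14 (without shAPE1#3 ABS replicate 2).

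In FLO1 the library with the steep GC slope, shControl ABS replicate 2, moved 6 counts. Without it the count was 8 for shAPE1#1 after ABS (range 0 to 8), 16 for shAPE1#1 against shControl unexposed (range 0 to 16), 1 for the same after ABS (range 0 to 9), 1 for shAPE1#3 against shControl after ABS (range 0 to 1), 3 between the shRNAs (range 0 to 3) and 1 for the difference between lines in the ABS response (range 0 to 1). FLO1 shControl after ABS ranged from 1 to 2, with 2 without shControl ABS replicate 1. For shAPE1#1 against shControl after ABS 1 member was also left without shAPE1#1 replicate 1, 2 or 3 or shAPE1#3 ABS replicate 3. Depth limits RPL3L, which at 1 to 4 CPM in FLO1 rests on small counts.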
